A study of Arabidopsis thaliana with 24 samples.

Results

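The genes described here are 3 CBF transcription factors and 6 genes known as cold-induced, 9 of the 33612 features in the count table. They are CBF1 (AT4G25490), CBF2 (AT4G25470), CBF3 (AT4G25480, also DREB1A), COR15A (AT2G42540), COR15B (AT2G42530), KIN1 (AT5G15960), KIN2 (AT5G15970), COR47 (AT1G20440) and RD29A (AT5G52310). They were selected on earlier results of these data, in which CBF3 and COR15B were lower in bte1 than in WT, so the bte1 against WT values are given below as a description with no test. All 9 passed the filter on low counts and were among the 21897 genes tested.

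CBF proteins are AP2/ERF transcription factors. In the cold, factors such as ICE1 and the CAMTA proteins raise CBF transcription, and the CBF proteins then bind CRT/DRE elements in the promoters of COR genes. The proteins made from COR genes are mostly hydrophilic and protect membranes and proteins during freezing and dehydration. The same genes are known to respond to abscisic acid, drought and the circadian clock, and they have a basal level in warm-grown seedlings. No cold treatment is described for these seedlings, so the values below are basal levels.

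Poly(A) RNA of whole seedlings, aged 9 days and kept in constant white light, was sequenced in 24 libraries, 3 for each of 8 genotypes. The genotypes were the bte1 hid1 double mutant, the hid1 phil1 double mutant, hid1, bte1, the bte1 btl1 double mutant, the e2fa e2fb e2fc triple mutant (called e2f here), btl1 and the Col-0 wild type (WT). HID1 is a noncoding RNA gene of light responses, and phil1 is a mutation in the proximal promoter of HIL1 per the labels. The triple mutant lacks, by its label, the 3 genes of the canonical E2F factors, which act with the DREAM complex on cell cycle genes. The bte1 and btl1 alleles are given by name only. Each genotype is whole-seedling RNA, so a smaller share of cells that express a gene and less RNA per cell cannot be told apart. Total counts ran between 14309396 and 23912716 per library. They were 14309396 to 15424866 in btl1 and bte1 btl1, and at least 19309154 in every library of the other genotypes. HID1 had 0 reads in every hid1 and bte1 hid1 library and at most 9 in a hid1 phil1 library, against a mean of 8.61 CPM in WT (CPM are reads scaled to a common library size). In e2f, E2FA averaged 31.3 CPM and E2FC 47.5 CPM, against 8.83 and 11.5 CPM in WT, so counts over whole genes do not check that label. The libraries form a set of 15 (the 5 genotypes bte1 hid1, hid1 phil1, hid1, bte1 and WT) and a set of 9 (e2f, bte1 btl1 and btl1), which differ in the features given values in the deposited FPKM table. Genotype and library set cannot be told apart where btl1, bte1 btl1 or e2f is compared with WT. Genes of leaf photosynthesis (21040 to 48160 CPM summed over 6 genes) and of root (1896 to 3401 CPM summed over 8 genes) were present in every library. Seed storage and late embryogenesis RNA, summed over 13 genes, was at 108 CPM in hid1 replicate 2, 106.5 CPM in btl1 replicate 2, 104 CPM in bte1 btl1 replicate 3 and 149 CPM in e2f replicate 2, against at most 2.53 CPM in any library of bte1 hid1, hid1 phil1, bte1 or WT.

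The sequences just before the annotated starts of 4 members show the elements by which this pathway is usually described. RD29A and COR15A are shown because they hold CRT/DRE cores, COR47 because it is the most abundant member and holds none, and CBF3 because its change in e2f was the largest fitted for any member. Each is the 250 bases before the gene start, 5′ to 3′ on the gene's strand, from NCBI RefSeq TAIR10.1, with CCGAC or its reverse complement GTCGG and AAATATCT or its reverse complement AGATATTT in capitals.
CBF3: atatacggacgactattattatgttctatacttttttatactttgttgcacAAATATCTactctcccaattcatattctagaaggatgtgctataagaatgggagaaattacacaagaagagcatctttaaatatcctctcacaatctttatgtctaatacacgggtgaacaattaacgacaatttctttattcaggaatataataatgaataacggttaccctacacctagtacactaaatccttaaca
COR15A: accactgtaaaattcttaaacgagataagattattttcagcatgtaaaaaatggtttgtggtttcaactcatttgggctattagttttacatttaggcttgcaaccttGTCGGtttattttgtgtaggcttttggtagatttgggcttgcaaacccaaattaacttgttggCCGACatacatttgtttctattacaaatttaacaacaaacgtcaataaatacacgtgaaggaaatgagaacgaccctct
COR47: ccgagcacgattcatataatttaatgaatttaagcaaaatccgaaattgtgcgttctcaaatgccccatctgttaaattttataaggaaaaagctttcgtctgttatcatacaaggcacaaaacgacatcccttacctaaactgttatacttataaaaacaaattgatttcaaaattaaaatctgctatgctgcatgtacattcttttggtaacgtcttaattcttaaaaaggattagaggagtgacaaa
RD29A: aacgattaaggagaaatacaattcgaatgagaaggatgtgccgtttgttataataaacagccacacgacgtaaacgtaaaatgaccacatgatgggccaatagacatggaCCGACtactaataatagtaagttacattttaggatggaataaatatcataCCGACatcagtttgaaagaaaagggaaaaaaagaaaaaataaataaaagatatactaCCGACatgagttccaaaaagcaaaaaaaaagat
These windows lie at chr4:13019401-13019650 (minus strand) for CBF3, chr2:17712331-17712580 (minus strand) for COR15A, chr1:7086874-7087123 (minus strand) for COR47 and chr5:21240467-21240716 (plus strand) for RD29A. In the window of 250 bases before to 50 after the start, CCGAC on either strand was found in 2 of the 9 members, against 15% of 27443 promoters of the same length. RD29A held 4, of which 3 are in the printed part, and COR15A held 2. The COR15B window held none, and 243 of its 300 bases lie inside the annotated COR15A gene. The evening element AAATATCT, which clock proteins of the RVE and CCA1 family bind, was in CBF1, CBF2, CBF3 and KIN1, against 5.65% of promoters. The abscisic acid response core ACGTGGC was in CBF2 alone of the members, against 4.08% of promoters, and the E2F-type sequence TTTNNCGC was in 0 of the 9, against 7.41%. No match overlapped another. A match is a description of letters, and an absent one says only that this window lacks them.

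The members lie in 3 tandem groups and 2 single loci. CBF1, CBF3 and CBF2 follow each other on chromosome 4, with 2379 and 1774 bases between the annotated genes. COR15A and COR15B are 7 bases apart on chromosome 2, and KIN1 and KIN2 are 892 bases apart on chromosome 5. COR47 is on chromosome 1 and RD29A is elsewhere on chromosome 5. The coding sequences of KIN1 and KIN2 were 95% identical, those of the CBF pairs 85% to 86.7%, and those of COR15A and COR15B 82.6%. Of all windows of 50 coding bases, 5.92% were shared exactly by KIN1 and KIN2 and 4.89% by CBF1 and CBF2, so a part of their reads could be counted to the wrong copy, and the summed counts are given where they change a call.

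The 9 genes spanned a wide range of basal levels. Per kilobase, COR47 was highest in WT at 305 ± 30.9 FPKM and KIN2 next at 253 ± 75.6 FPKM (SD, n = 3 each). RD29A stood at 41.6 ± 17.0 FPKM, COR15B at 31.5 ± 11.6 FPKM, COR15A at 16.9 ± 5.61 FPKM and KIN1 at 11.6 ± 3.50 FPKM in WT. The regulators were near the floor, with CBF3 at 1.42 ± 0.782 FPKM, CBF2 at 0.923 ± 0.124 FPKM and CBF1 at 0.533 ± 0.264 FPKM in WT. COR47 led this order in 7 of the 8 genotypes. In hid1, KIN2 led at 407 ± 88.1 FPKM with COR47 at 303 ± 28.8 FPKM. The CBF genes rested on few reads, with 0 to 16 for CBF1 per library, 6 to 52 for CBF2 and 1 to 47 for CBF3. In hid1 against WT the standard error of the log2 change was 0.67 for CBF1 and 0.14 for COR47.

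**Figure D1:**
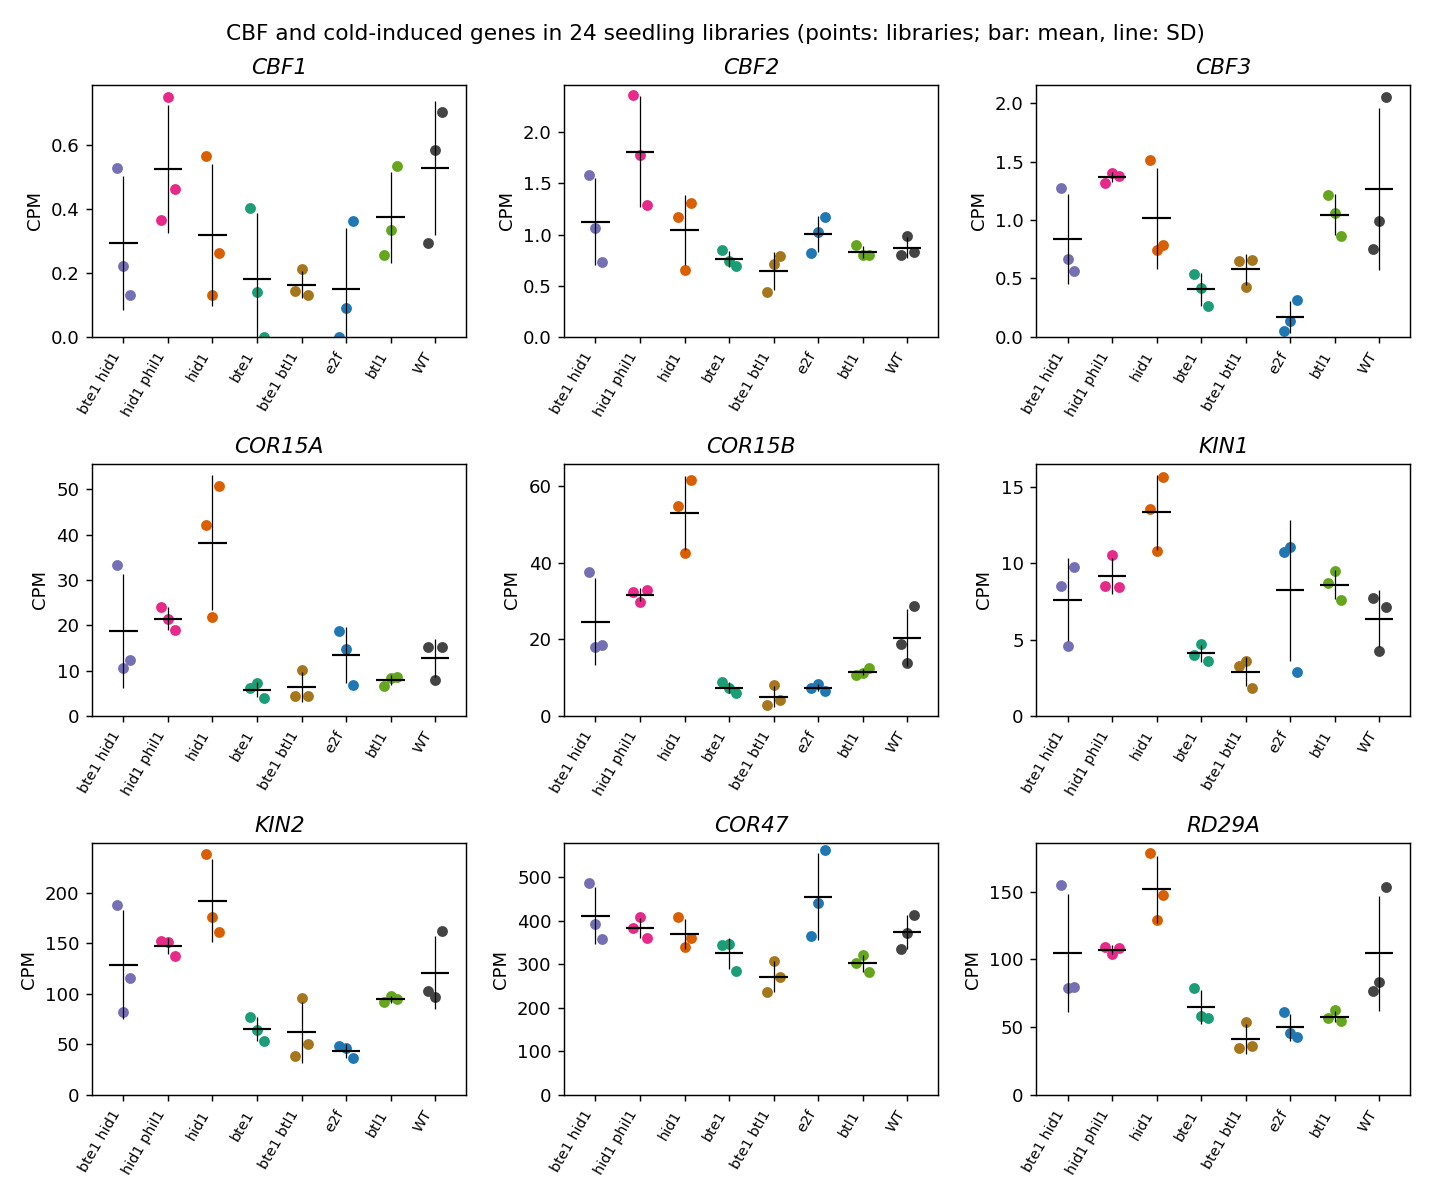
CPM of each member (y axis, own scale per panel, starting at 0) in the 3 libraries of each of 8 genotypes (x axis); points are libraries, the bar is the mean and the line the SD. COR15A, COR15B, KIN1, KIN2 and RD29A are highest on average in hid1, and COR47 varies least.

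COR15B, whose product sits in the chloroplast stroma and stabilises membranes in freezing, had more separate steps between genotypes than any other member. It was chosen as lower in bte1 than in WT, so the places of bte1 and WT are not independent of that choice. It averaged 53.0 ± 9.70 CPM in hid1, 31.6 ± 1.68 CPM in hid1 phil1, 24.6 ± 11.2 CPM in bte1 hid1, 20.4 ± 7.52 CPM in WT, 11.5 ± 0.866 CPM in btl1, 7.39 ± 1.43 CPM in bte1, 7.34 ± 0.907 CPM in e2f and 4.96 ± 2.72 CPM in bte1 btl1 (SD, n = 3 each). Neighbours in this order had separate libraries only between hid1 and hid1 phil1, between WT and btl1, and between btl1 and bte1. KIN1, KIN2 and RD29A were also highest in hid1, with no library shared with the next genotype. For CBF1, CBF2, CBF3, COR15A and COR47, all neighbours in the order overlapped.

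Over the 24 libraries, after removing the mean of each library set, the log2 CPM of COR15A, COR15B, KIN1, KIN2 and RD29A ran together, with Pearson r of 0.626 to 0.901 over 10 pairs. COR47 followed those 5 genes less closely, with r of 0.0843 to 0.453. The CBF genes correlated with the 6 others at r of -0.0963 to 0.684 over 18 pairs, and among themselves at 0.25 to 0.794 over 3 pairs. These values describe libraries that share genotype, growth and depth, and no test was made of them.

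The bte1 mutation was carried in 3 backgrounds. The comparison of bte1 with WT was used to choose the genes, so its values are a description and support nothing. In it all 9 members had fitted log2 changes below 0, with a median of -0.90 against a median of -0.003 over all genes tested. CBF3 had 0.537, 0.418 and 0.259 CPM in bte1, against 0.756, 0.989 and 2.06 CPM in WT, a log2 change of -1.63. COR15B had 8.86, 7.30 and 6.0 CPM in bte1, against 18.8, 13.9 and 28.6 CPM in WT, a log2 change of -1.47. Those 2 genes are the ones on which the choice was made, where 0.63% of all genes were called lower, and nothing is read from that count. KIN2 was at -0.90, RD29A at -0.69, KIN1 at -0.64 and COR47 at -0.20 on the log2 scale. COR15A was at -1.14, CBF1 at -1.52 and CBF2 at -0.19.

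In the hid1 background, bte1 hid1 had lower COR15B than hid1, and the other 8 members did not pass the test. COR15B had 37.6, 17.9 and 18.4 CPM in bte1 hid1, against 54.8, 42.5 and 61.6 CPM in hid1. The bte1 hid1 libraries all lay below the hid1 libraries, and replicate 1 of bte1 hid1 lay closest to them. The log2 change was -1.11 (SE 0.29, edgeR adjusted p = 0.0276), and COR15B was the only 1 of 9 members called, where 3.11% of all genes were called lower. COR15A had 33.2, 10.6 and 12.4 CPM in bte1 hid1, against 42.0, 21.8 and 50.8 CPM in hid1, and its replicate 1 overlapped hid1. Its log2 change was -1.03 (SE 0.44, edgeR adjusted p = 0.183). KIN1 was at -0.81, KIN2 at -0.58 and RD29A at -0.54 on the log2 scale, none of them called. COR47, a dehydrin, was at 0.16, CBF1 at -0.13, CBF2 at 0.12 and CBF3 at -0.29. The median of the 9 was -0.54, against 0.007 over all genes. Root genes moved in the same comparison, with 4 of 8 called higher, where 4.33% of all genes were, and 1 called lower. CASP2 (log2 change 1.02), EXPA7 (0.86) and COBL9 (0.83) were among the higher ones, and NRT2.1, named after its values were seen, was the lower one (-2.53). The summed root level was 2402 to 2642 CPM in bte1 hid1 and 2013 to 2587 CPM in hid1, and its part in the COR15B value was not tested.

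That call rests on single libraries. The edgeR adjusted p of COR15B rose above the threshold without hid1 replicate 1 (0.0727), without hid1 replicate 3 (0.111), without bte1 hid1 replicate 2 (0.112) or replicate 3 (0.11), and when only the 2 genotypes were fitted (0.154). Without bte1 hid1 replicate 1, COR15A was called as well, at -1.73 (edgeR adjusted p = 0.0365). With COR15A and COR15B summed, the log2 change was -1.07 and was not called (edgeR adjusted p = 0.0844).

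In the btl1 background all 9 members had log2 changes below 0 in bte1 btl1, with a median of -0.62 against -0.002 over all genes, and KIN1 alone was called. KIN1, which encodes a small hydrophilic protein, had 3.24, 3.61 and 1.84 CPM in bte1 btl1, against 8.69, 9.51 and 7.58 CPM in btl1. The 2 groups did not overlap. KIN1 fell by 1.57 on the log2 scale (SE 0.43, edgeR adjusted p = 0.0392), where 1.12% of all genes were called lower. The call was lost on leaving out any single 1 of the 6 libraries, with edgeR adjusted p of 0.0688 without btl1 replicate 3 to 0.157 without bte1 btl1 replicate 3, and with the 9 libraries of that set alone (0.204). It held with DESeq2 (adjusted p = 0.000704) and in a fit on the 2 genotypes alone (edgeR adjusted p = 9.43e-05). The summed counts of KIN1 and KIN2 were not called (log2 change -0.68, edgeR adjusted p = 0.308).

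COR15B had 2.74, 8.0 and 4.15 CPM in bte1 btl1, against 10.7, 11.3 and 12.4 CPM in btl1. All bte1 btl1 libraries were lower, and replicate 2 was the nearest to btl1. The log2 change was -1.21 (SE 0.38, edgeR adjusted p = 0.0917), and it was called without bte1 btl1 replicate 2 (-1.73, edgeR adjusted p = 0.0267) and with the 9 libraries alone (edgeR adjusted p = 0.0418). Of the 9 members, 6 (CBF1, CBF2, CBF3, COR15B, KIN1 and RD29A) had bte1 btl1 libraries wholly below the btl1 libraries, against 10.8% of all genes. The CBF genes among them rested on few reads, with 2, 3 and 2 for CBF1 in bte1 btl1 and 4, 5 and 8 in btl1. For CBF2, bte1 btl1 replicate 3 and btl1 replicates 2 and 3 each had 12 reads, at 0.791, 0.798 and 0.798 CPM. COR15A was at -0.33, KIN2 at -0.62, RD29A at -0.48, COR47 at -0.16, CBF1 at -1.17, CBF2 at -0.36 and CBF3 at -0.85 on the log2 scale, none called.

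Whether the bte1 change differed between the hid1 and btl1 backgrounds was tested as an interaction. None of the 9 members was called by edgeR, 0 had an unadjusted p under 0.05 and 0 were called by DESeq2, where edgeR called 3.87% of all genes. The differences between the 2 backgrounds were 0.11 for COR15B (SE 0.48), 0.77 for KIN1 (SE 0.55) and 1.03 for CBF1 (SE 1.19) on the log2 scale.

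**Figure D2:**
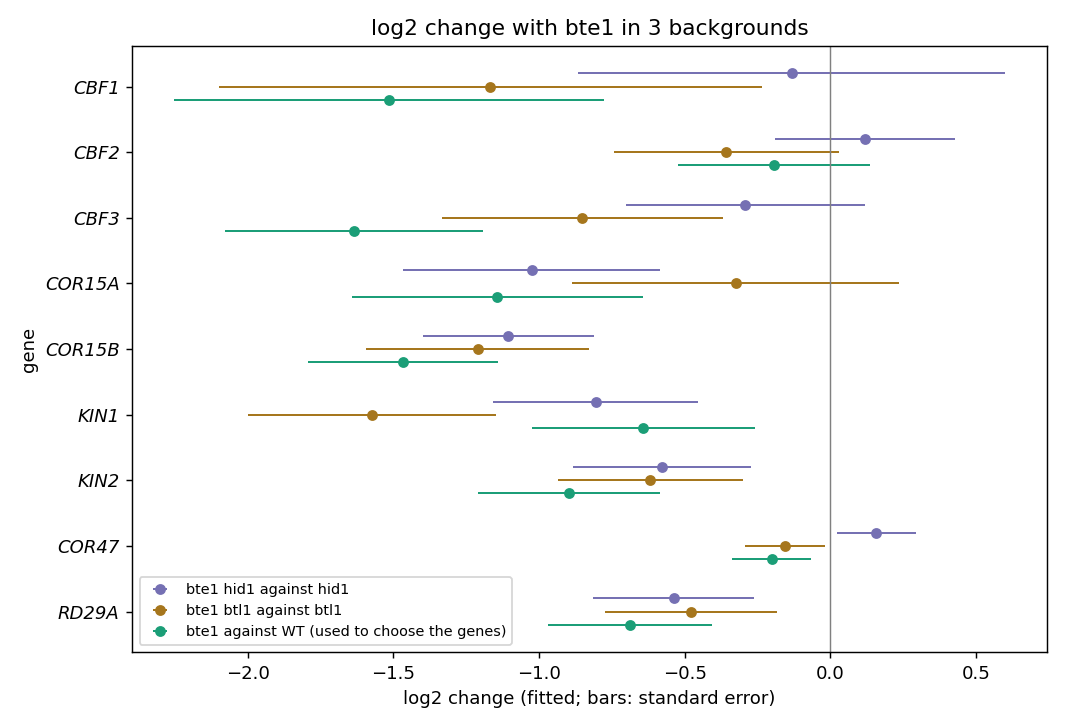
Fitted log2 change with bte1 (x axis; bars are standard errors) for each member (y axis) in bte1 hid1 against hid1, bte1 btl1 against btl1 and bte1 against WT, the last used to choose the genes. COR15B lies between -1.11 and -1.47 in all 3, and COR47 within 0.20 of 0.

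The hid1 mutant had higher COR15B than WT. COR15B had 54.8, 42.5 and 61.6 CPM in hid1, against 18.8, 13.9 and 28.6 CPM in WT, and the lowest hid1 library was above the highest WT library. COR15B rose by 1.37 on the log2 scale (SE 0.30, edgeR adjusted p = 0.0145). It was the only 1 of 9 members called, where 1.73% of all genes were called higher. The hid1 comparison shares its WT libraries with the comparison that chose the genes.

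COR15A, the chloroplast partner of COR15B, had 42.0, 21.8 and 50.8 CPM in hid1, against 15.1, 7.87 and 15.2 CPM in WT, and KIN1 had 13.6, 10.8 and 15.7 CPM in hid1, against 7.73, 4.23 and 7.13 CPM in WT. Neither gene overlapped between the groups. Their log2 changes were 1.58 (SE 0.45, edgeR adjusted p = 0.0683) and 1.06 (SE 0.36, edgeR adjusted p = 0.12), short of the threshold. With COR15B, 3 of the 9 members had hid1 libraries wholly above WT, against 12.5% of all genes. DESeq2 called those 3 genes, with adjusted p of 0.0238 for COR15A, 0.00253 for COR15B and 0.0422 for KIN1, where it called 2.06% of the genes it tested higher.

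KIN2 had 239, 176 and 161 CPM in hid1, against 103, 97.2 and 162 CPM in WT, a log2 change of 0.67 that was not called. RD29A, which encodes a hydrophilic protein of dehydration and cold responses, had 178, 129 and 148 CPM in hid1, against 76.6, 83.6 and 153 CPM in WT, a log2 change of 0.54 that was not called. In both genes WT replicate 3 reached the hid1 libraries. COR47 differed by -0.02 on the log2 scale, with 369 ± 34.8 CPM in hid1 and 373 ± 39.0 CPM in WT (SD, n = 3 each). The regulators were at -0.70 for CBF1, 0.25 for CBF2 and -0.31 for CBF3, and none of them was called.

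The COR15B call in hid1 was lost without hid1 replicate 3 (edgeR adjusted p = 0.0699), WT replicate 1 (0.0566) or WT replicate 2 (0.081), and in a fit on the 2 genotypes alone (0.105). The summed counts of COR15A and COR15B were called at 1.46 (edgeR adjusted p = 0.0369). Seed RNA was high in hid1 replicate 2, and that library had the lowest COR15A and COR15B of the 3. Without it, COR15A was called too, at 1.86 (edgeR adjusted p = 0.0421).

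Neither of the double mutants that carry hid1 had a member called against WT. None of the 9 members was called in bte1 hid1 against WT by edgeR or DESeq2, and 0 had an unadjusted p under 0.05, where 2.4% of all genes were called by edgeR. COR15B was at 0.27 (SE 0.30) in that comparison. None was called in hid1 phil1 against WT by edgeR or DESeq2, and 2 had an unadjusted p under 0.05, where 0.114% of all genes were called by edgeR. CBF2 had 2.37, 1.78 and 1.29 CPM in hid1 phil1, against 0.798, 0.989 and 0.832 CPM in WT. Its groups did not overlap, and the log2 change was 1.05 (SE 0.30, edgeR adjusted p = 0.41). With COR15A at 0.75, COR15B at 0.63 and KIN1 at 0.52 on the log2 scale, 4 of the 9 members had hid1 phil1 libraries wholly above WT, against 5.88% of all genes.

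Set against hid1 itself, hid1 phil1 had log2 changes below 0 for all effector genes but COR47 (0.06), none past the threshold. COR15B had 32.3, 29.7 and 32.9 CPM in hid1 phil1, against 54.8, 42.5 and 61.6 CPM in hid1. The hid1 phil1 libraries were close together and all below hid1. The log2 change was -0.74 (SE 0.29, edgeR adjusted p = 0.14). RD29A had 109, 104 and 109 CPM in hid1 phil1, against 178, 129 and 148 CPM in hid1, a log2 change of -0.50. COR15B, KIN1, KIN2 and RD29A, 4 of the 9, had hid1 phil1 libraries wholly below hid1, against 12.9% of all genes. None of the 9 was called by edgeR or DESeq2 and 2 had an unadjusted p under 0.05, where 6.45% of all genes were called by edgeR. A fit on the 2 genotypes alone called COR15B (edgeR adjusted p = 0.0163) and RD29A (0.0416). Of the 8 root genes, EXPA7, CASP2 and CASP1 were called higher here, where 3.53% of all genes were, and their part in these values was not tested.

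Loss of HID1 in the bte1 background also came with higher COR15B. COR15B had 37.6, 17.9 and 18.4 CPM in bte1 hid1, against 8.86, 7.30 and 6.0 CPM in bte1, with no overlap. The log2 change was 1.74 (edgeR adjusted p = 0.026), the only call of 9 members where 0.146% of all genes were called higher. The bte1 libraries also chose COR15B as low, so this call is not independent of the choice. It was lost without bte1 replicate 1 (edgeR adjusted p = 0.0732), replicate 2 (0.143) or replicate 3 (0.188) and without bte1 hid1 replicate 1 (0.135). It was also lost with the set of 15 libraries (0.0943) and with the 2 genotypes alone (0.261), and the summed counts of COR15A and COR15B were not called (log2 change 1.72, edgeR adjusted p = 0.115).

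**Figure D3:**
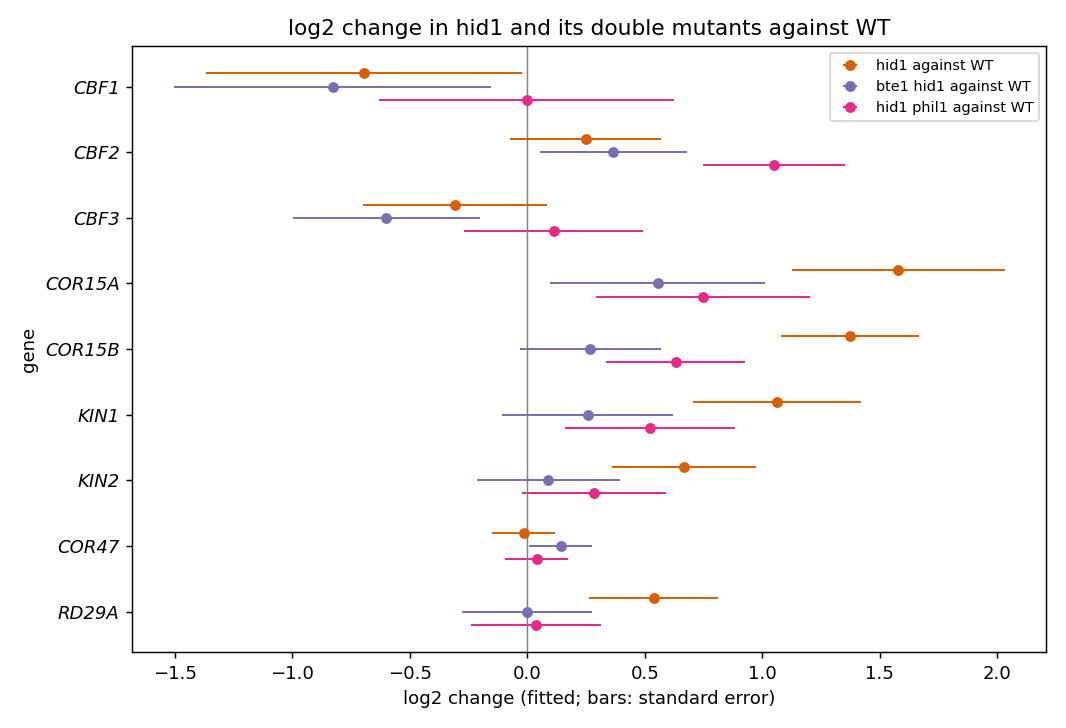
Fitted log2 change against WT (x axis; bars are standard errors) for each member (y axis) in hid1, bte1 hid1 and hid1 phil1. COR15A and COR15B lie at 1.58 and 1.37 in hid1 and nearer 0 in both double mutants, while COR47 stays near 0 in all 3.

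The btl1 and bte1 btl1 mutants were compared with WT across the library sets, and several effectors were lower in them. The WT libraries also entered the choice of the genes, in which CBF3 and COR15B were higher in WT, so calls lower than WT are not independent of that choice. RD29A had 56.4, 62.6 and 54.3 CPM in btl1, against 76.6, 83.6 and 153 CPM in WT, with no overlap. Its log2 change was -0.85 (SE 0.28, edgeR adjusted p = 0.0475), the only call of 9 members where 8.65% of all genes were called lower. Without WT replicate 3 the log2 change was -0.47 (edgeR adjusted p = 0.272). The call was also lost without btl1 replicate 1 (0.122), replicate 2 (0.0847) or replicate 3 (0.127), and in a fit on the 2 genotypes alone (0.148). In bte1 btl1, 4 of the 9 members were called lower than WT, where 13.3% of all genes were, and all 9 log2 changes were below 0.

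COR15B had 2.74, 8.0 and 4.15 CPM in bte1 btl1, against 18.8, 13.9 and 28.6 CPM in WT, and RD29A had 34.4, 54.0 and 36.0 CPM in bte1 btl1, against 76.6, 83.6 and 153 CPM in WT. No library overlapped in either gene. Their log2 changes were -2.04 (edgeR adjusted p = 0.000418) and -1.33 (edgeR adjusted p = 0.00244), and both calls held without each single library. In a fit on the 2 genotypes alone RD29A was not called (edgeR adjusted p = 0.0616), nor was KIN2 (0.182). With all 24 libraries KIN2 was at -0.97 (edgeR adjusted p = 0.0301) and COR47 at -0.46 (edgeR adjusted p = 0.0141). KIN2 was not called without WT replicate 3 (edgeR adjusted p = 0.148) or bte1 btl1 replicate 1 (0.137) or replicate 3 (0.102). COR47 was not called without WT replicate 3 (edgeR adjusted p = 0.0709) or bte1 btl1 replicate 1 (0.0867). The summed counts of the 3 CBF genes were called lower (log2 change -0.94, edgeR adjusted p = 0.0454), although no single CBF gene was.

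The e2f triple mutant split the members. CBF3 had 0.046, 0.134 and 0.316 CPM in e2f (1, 3 and 7 reads), against 0.756, 0.989 and 2.06 CPM in WT (18, 22 and 47 reads). Every e2f library lay below every WT library. CBF3 fell by 2.89 on the log2 scale (SE 0.52, edgeR adjusted p = 5.51e-05). Its neighbour CBF2 had 0.823, 1.03 and 1.17 CPM in e2f, against 0.798, 0.989 and 0.832 CPM in WT, a log2 change of 0.21 that was not called. CBF1 had 0, 0.089 and 0.361 CPM in e2f, against 0.294, 0.585 and 0.70 CPM in WT, a log2 change of -1.76 (edgeR adjusted p = 0.0563). Without e2f replicate 3, CBF1 was called at -3.36 (edgeR adjusted p = 0.0098), and it was called without WT replicate 1 as well (edgeR adjusted p = 0.0405).

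Of the effectors, COR15B, KIN2 and RD29A fell in e2f against WT. KIN2 had 48.6, 46.0 and 36.1 CPM in e2f, against 103, 97.2 and 162 CPM in WT, with no overlap, and a log2 change of -1.47 (SE 0.32, edgeR adjusted p = 0.000935). COR15B had 7.23, 8.30 and 6.50 CPM in e2f, against 18.8, 13.9 and 28.6 CPM in WT, with no overlap, and a log2 change of -1.47 (SE 0.33, edgeR adjusted p = 0.00104). RD29A had 60.9, 45.7 and 42.8 CPM in e2f, against 76.6, 83.6 and 153 CPM in WT, and its log2 change was -1.07 (SE 0.28, edgeR adjusted p = 0.00445). With CBF3 these are 4 of 9 members called lower, where 25.8% of all genes were called lower. The 4 calls held without each single library, and they share with the choice of the genes the same WT libraries, so they are not independent of it. The summed counts of COR15A and COR15B were not called (log2 change -0.67, edgeR adjusted p = 0.151).

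The neighbouring copies COR15A and KIN1 did not pass the test in e2f against WT. COR15A had 18.8, 14.9 and 6.72 CPM in e2f, against 15.1, 7.87 and 15.2 CPM in WT, a log2 change of 0.08. KIN1 had 10.7, 11.1 and 2.89 CPM in e2f, against 7.73, 4.23 and 7.13 CPM in WT, a log2 change of 0.37. Replicate 3 of e2f was the lowest of its group in both genes. Without it, KIN1 was called higher at 0.78 (edgeR adjusted p = 0.02). Seed RNA summed over 13 genes was at 6.77, 149 and 56.4 CPM in e2f, against at most 2.45 CPM in WT, with 4 of 12 tested seed genes called higher, where 26.4% of all genes were, and its part in these values was not tested. COR47 was at 0.29 (edgeR adjusted p = 0.0801), and it was called without e2f replicate 1 (0.43, edgeR adjusted p = 0.00968).

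Within the set of 9 libraries, e2f was also set against btl1. The 2 genotypes differ in depth, with total counts of 21270487 to 21885875 per library in e2f and 15092335 to 15227469 in btl1. Genotype and depth cannot be told apart in this comparison. CBF3 had 1.21, 1.06 and 0.864 CPM in btl1, and the log2 change in e2f was -2.62 (SE 0.55, edgeR adjusted p = 0.000338). KIN2 had 91.5, 98.4 and 94.8 CPM in btl1, and the log2 change in e2f was -1.12 (SE 0.32, edgeR adjusted p = 0.00725). COR47 had 365, 440 and 562 CPM in e2f, against 304, 322 and 282 CPM in btl1, with no overlap, and rose by 0.59 on the log2 scale (SE 0.14, edgeR adjusted p = 0.000946). The 2 lower calls stand where 24.8% of all genes were called lower, and the 1 higher call where 26.4% were called higher. All 3 held without each single library. The summed counts of the 3 CBF genes were not called (log2 change -0.76, edgeR adjusted p = 0.0688). RD29A was at -0.21 and COR15B at -0.64 (edgeR adjusted p = 0.13), neither called. COR15B had 7.23, 8.30 and 6.50 CPM in e2f, against 10.7, 11.3 and 12.4 CPM in btl1. Its e2f libraries lay wholly below btl1, where those of 27.5% of all genes did. In a fit on the 2 genotypes alone COR15B was called (edgeR adjusted p = 0.00418). The e2f libraries enter both comparisons, so the 2 sets of values are not independent.

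**Figure D4:**
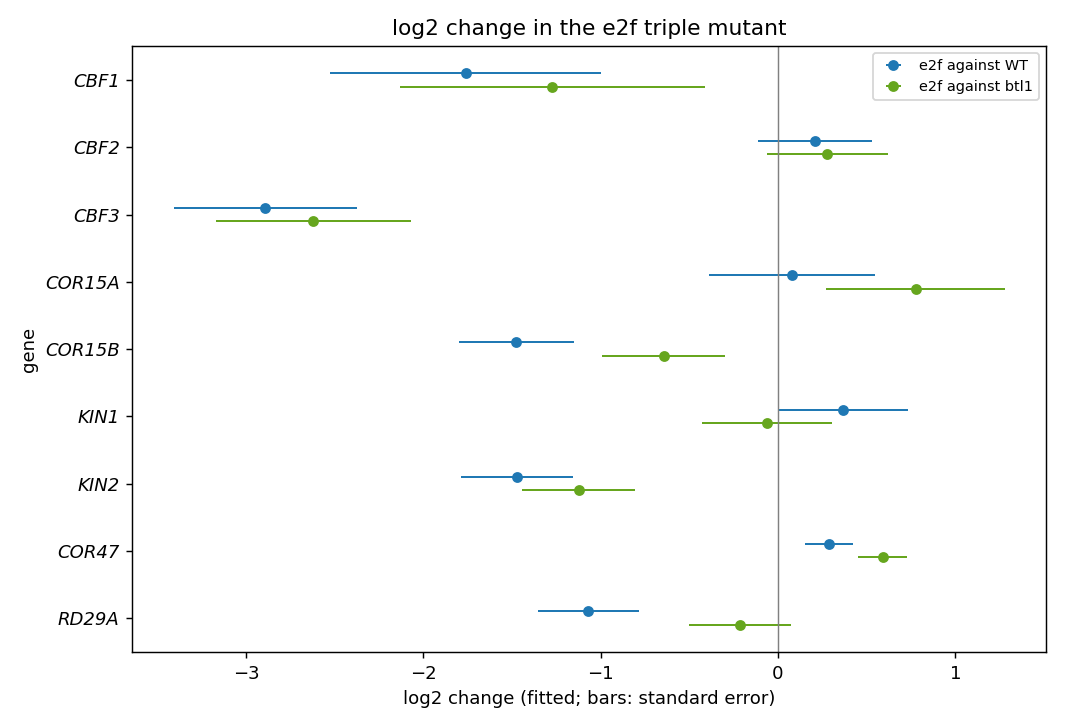
Fitted log2 change in e2f (x axis; bars are standard errors) for each member (y axis) against WT and against btl1. CBF3 lies at -2.89 and -2.62 and KIN2 at -1.47 and -1.12, while CBF2 is at 0.21 and 0.28 and COR47 at 0.29 and 0.59.

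The balance between neighbouring copies was compared as a ratio within each library, in tests that cannot reach the threshold with 3 against 3 libraries. COR15A counts were 103% to 260% of COR15B counts in e2f libraries and 105% to 161% in bte1 btl1, against 61.9% to 74.1% in btl1 and 53.1% to 80.5% in WT. The log2 ratio was higher by 1.43 in e2f than in WT and by 0.91 in bte1 btl1 than in btl1. In both the 2 groups did not overlap and the exact two-sided permutation p was 0.1, the smallest that 3 against 3 libraries can give. COR15B was chosen as higher in these WT libraries than in bte1, so its ratio against WT is not independent of that choice. KIN1 counts were 7.99% to 24.1% of KIN2 counts in e2f, against 4.35% to 7.5% in WT (log2 ratio higher by 1.63, exact permutation p = 0.1), and 7.99% to 9.66% in btl1 (log2 ratio higher by 0.84 in e2f, exact permutation p = 0.3). For COR47 and RD29A, which are not neighbours, COR47 counts were 599% to 1310% of RD29A counts in e2f, against 269% to 446% in WT (log2 ratio higher by 1.28, exact permutation p = 0.1). They were 515% to 538% in btl1 and 570% to 750% in bte1 btl1, also above WT. The exact permutation p of this ratio was 0.1 in the other comparisons too. The log2 differences were 0.80 for e2f against btl1, 0.34 for bte1 btl1 against btl1, 0.75 for bte1 hid1 against hid1 and -0.61 for hid1 against WT. A ratio within a library shows unequal change and does not say which gene moved.

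**Figure D5:**
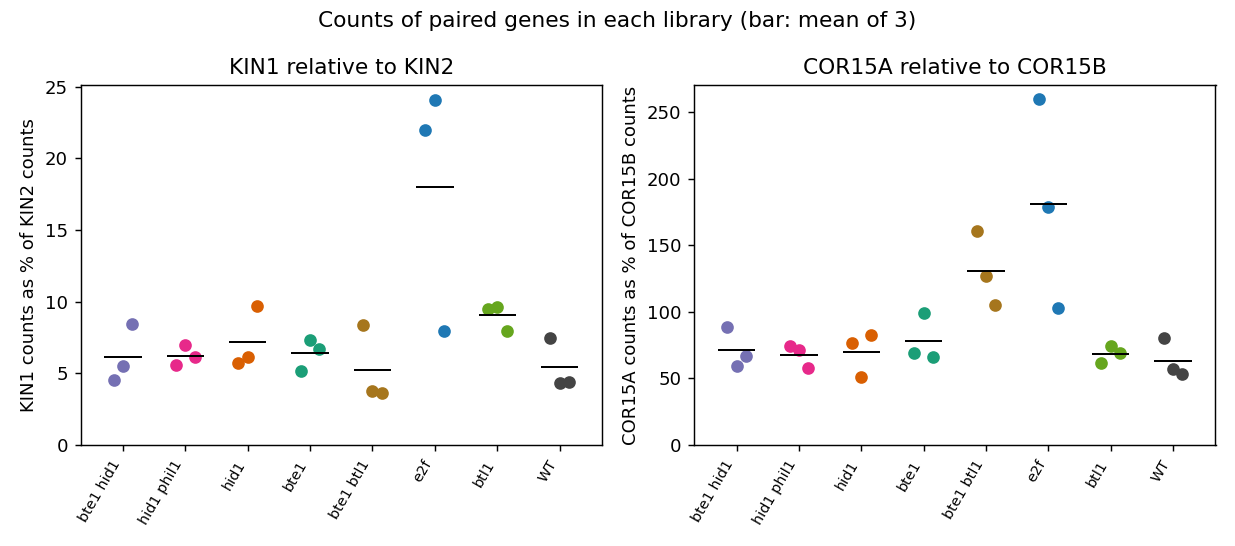
KIN1 counts as a percentage of KIN2 counts (left) and COR15A counts as a percentage of COR15B counts (right), y axes from 0, in the 3 libraries of each genotype (points; the bar is the mean). COR15A exceeds COR15B in every e2f and bte1 btl1 library and in no other.

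Other genes of the pathway were counted from lists. Of 17 other cold-induced genes, none was called in hid1 against WT, hid1 phil1 against hid1 or bte1 btl1 against btl1. The shares of all genes called there were 3.44%, 6.45% and 4.49%. ERD14, a dehydrin, was the only 1 called in bte1 hid1 against hid1, at 330 CPM in bte1 hid1 and 252 CPM in hid1 (log2 change 0.39, edgeR adjusted p = 0.0133), opposite in direction to COR15B. In that comparison 4.33% of all genes were called higher. In bte1 against WT, GOLS3, a galactinol synthase, was the only 1 called, where 0.63% of all genes were called lower. Its level was low, at 0.734 CPM in bte1 and 1.91 CPM in WT (1.08 to 2.89 CPM). That comparison chose the members, and the lists were chosen with earlier results known, so nothing is read from this call. In bte1 btl1 against WT, 3 of 17 fell, where 13.3% of all genes did, among them COR413IM1, a chloroplast inner membrane protein, at 20.7 CPM in bte1 btl1 and 63.5 CPM in WT (log2 change -1.62, edgeR adjusted p = 0.00233). In e2f against WT, 5 of 17 rose, where 26.4% of all genes did, and 9 fell, where 25.8% did. SUS1, a sucrose synthase, was at 67.5 CPM in e2f and 28.1 CPM in WT, and COR413-PM1 at 130 CPM in e2f and 242 CPM in WT. The list's median log2 change there was -0.35, against -0.01 over all genes.

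Of 18 tested upstream regulators of the CBF genes, 0 were called in hid1 or bte1 against WT or in bte1 btl1 against btl1. The shares of all genes called there were 3.44%, 2.52% and 4.49%, and at such shares a count of 0 in 18 says little. CAMTA2 rose in bte1 hid1 against hid1, at 50.1 CPM in bte1 hid1 and 43.1 CPM in hid1 (edgeR adjusted p = 0.0465), where 4.33% of all genes rose. MYB15, a repressor of CBF genes, fell in hid1 phil1 against hid1, at 0.324 CPM in hid1 phil1 and 1.21 CPM in hid1 (edgeR adjusted p = 0.0339). Its level was near the floor, with libraries at 0.092 to 0.515 CPM in hid1 phil1 and 0.679 to 2.21 CPM in hid1. In that comparison 2.92% of all genes fell. In e2f against WT, 9 of 18 rose and 3 fell, beside 26.4% and 25.8% of all genes. ZAT12, a zinc finger protein, was at 8.46 CPM in e2f and 1.68 CPM in WT, CAMTA3 at 93.3 CPM in e2f and 62.9 CPM in WT, and HOS1, a ubiquitin ligase that acts on ICE1, at 60.3 CPM in e2f and 43.7 CPM in WT.

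Clock and stress genes moved beside the members. In hid1 against WT, 3 of 11 clock genes fell, where 1.72% of all genes did, namely RVE8 (log2 change -0.63), CCA1 (-0.69) and LHY (-0.60), and the summed clock level was 635 to 651 CPM in hid1 and 771 to 828 CPM in WT. In hid1 phil1 against hid1, RVE8, CCA1 and LHY rose (log2 changes 0.67, 0.73 and 0.66), where 3.53% of all genes did. RVE8 also rose in bte1 hid1 against hid1 (log2 change 0.53, edgeR adjusted p = 0.00305), the only 1 of the 11 called there, where 4.33% of all genes rose. Of 13 abscisic acid and dehydration genes, ABI5 and RD20 rose in hid1 against WT, where 1.73% of all genes did, ABI5 at 2.81 CPM in hid1 and 1.31 CPM in WT and RD20 at 6.02 CPM in hid1 and 3.51 CPM in WT. Both were also called higher than WT in btl1, bte1 btl1 and e2f, where 8.66%, 14.8% and 26.4% of all genes were. The log2 changes there were 0.81, 1.03 and 1.72 for ABI5 and 0.58, 0.57 and 1.66 for RD20. ABI5 was called higher in bte1 hid1 against WT as well (0.89), where 1.98% of all genes were. In e2f, all 10 of 10 touch and rapid stress genes rose against WT and against btl1, where 26.4% of all genes rose in each, and their summed level was 1099 to 1464 CPM in e2f, 189 to 200 CPM in btl1 and 158 to 213 CPM in WT. TCH4, a touch-induced xyloglucan endotransglucosylase, was at 322 CPM in e2f and 14.2 CPM in WT. In e2f against WT, 6 of 11 clock genes and 4 of 6 leaf photosynthesis genes fell, where 25.8% of all genes did, and no member of either list rose. The clock genes that fell there included RVE8 (log2 change -0.70). The part of these genes in the values of the CBF and COR genes was not tested.

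The genes most like the 6 effectors in pattern were ERD10, PAO2, SGS3, COR413IM1 and PHS2, out of 9230 named genes, by mean Pearson r over 24 libraries with each library set centred. ERD10, a dehydrin gene next to COR47, had a mean r of 0.725 (0.573 to 0.806 with single members). The other 4 had mean r of 0.69, 0.662, 0.648 and 0.642 in the order given. ERD10 averaged 131 ± 14 CPM in hid1, 116 ± 17.0 CPM in e2f, 106 ± 4.34 CPM in hid1 phil1, 105 ± 21.7 CPM in bte1 hid1, 99.7 ± 4.91 CPM in btl1, 81.0 ± 6.0 CPM in bte1, 73.8 ± 12.3 CPM in bte1 btl1 and 108 ± 17.7 CPM in WT (SD, n = 3 each). Unlike COR15B, KIN2 and RD29A, its mean in e2f was not below that in WT.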

How the data were processed

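RNA-seq libraries of 24 whole-seedling samples were analysed from the table of raw read counts per gene that the authors deposited. Per the submitters' processing notes, reads were handled with fastp, HISAT2 2.1.0 and SAMtools 1.6 against TAIR10. The counting program and its strand setting are not given in the sources used here. The FPKM values, deposited by the authors and named per the file headers, were used only to order genes within a genotype. Samples were grouped by the labels, which call the 3 libraries of a genotype biological replicates.

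Counts were tested with edgeR 4.0.16 (R 4.3.3): TMM factors (0.922 to 1.03), filterByExpr by genotype (21897 genes tested, 11715 removed), 1 robust quasi-likelihood fit over 24 libraries, F tests and Benjamini-Hochberg adjustment over all genes tested. A called gene has an adjusted p under 0.05. The standard error is the log2 change divided by the root of F. CPM use TMM-scaled library sizes. Ratios of paired genes were compared by exact permutation of libraries. The tests were checked on simulated data. The alternatives were DESeq2 1.42.0, RLE factors, testing without the filter, fits on the compared genotypes alone or on 1 library set, a replicate block, summed paralogs and leaving out each library.

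All 9 members, and up to 3 called genes of each other list with the smallest adjusted p, are named. COR28, HB7 and HB12 were dropped from the lists because the reference did not pair the name with the identifier. Gene names and promoters come from NCBI RefSeq TAIR10.1, in which 10626 features had a symbol. The members, lists and tests were chosen with earlier results of these data known. Same-numbered replicates were treated as unpaired across genotypes in the main fit.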

Additional observations from a re-analysis of the deposited data

How the results depend on the processing

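Outside bte1 against WT, 1190 of 1305 log2 values of members under the alternatives kept their sign and their side of the threshold. A call was lost in 38 and gained in 23, and 54 values changed sign, none of them called in either fit. In hid1 against WT, where 1 member was called, the set of 15 libraries gave 2, DESeq2 gave 3 and leaving out single libraries gave 0 to 2. In bte1 hid1 against hid1 (1 called), the 2 genotypes alone gave 0 and leaving out single libraries 0 to 2. In hid1 phil1 against hid1 (0 called), the 2 genotypes alone gave 2. In bte1 hid1 against bte1 (1 called), the set of 15 libraries and the 2 genotypes alone each gave 0, and leaving out single libraries 0 to 1. In btl1 against WT (1 called), no filter and the replicate block each gave 0, and leaving out single libraries 0 to 2. In bte1 btl1 against btl1 (1 called), no filter and the replicate block each gave 0, DESeq2 gave 2, and leaving out single libraries 0 to 1. In bte1 btl1 against WT (4 called), leaving out single libraries gave 2 to 5. Over all comparisons but bte1 against WT, COR15A and COR15B together had 5 calls as single genes and their summed counts 2. The fits on fewer libraries had fewer samples to estimate the spread, and the cause of the other changes was not tested.

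Same-numbered replicates were treated as unpaired. Correlations of their deviations across genotypes ran from -0.128 to 0.244. These were not set against replicates of different number, so the check cannot decide whether the samples pair. Under the replicate block the call of KIN1 in bte1 btl1 against btl1 (adjusted p = 0.0555) and that of RD29A in btl1 against WT (0.0524) were lost, and no other call of a member outside bte1 against WT. Depth limits the CBF genes, with CBF1 at 0 reads in 1 bte1 and 1 e2f library.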

Other observations

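Within some genotypes 1 library stood apart in several members, but not in all of them. In bte1 hid1, replicate 1 was high in COR15A (33.2 CPM, with 10.6 and 12.4 CPM in replicates 2 and 3), COR15B (37.6, with 17.9 and 18.4 CPM), KIN2 (188, with 82.6 and 116 CPM) and RD29A (155, with 79.2 and 79.4 CPM). KIN1 was instead highest in replicate 3 (9.77 CPM, with 8.49 CPM in replicate 1). In WT, replicate 3 was high in RD29A (153, with 76.6 and 83.6 CPM in replicates 1 and 2), KIN2 (162, with 103 and 97.2 CPM) and CBF3 (2.06, with 0.756 and 0.989 CPM). KIN1 was highest in WT replicate 1 (7.73 CPM, with 7.13 CPM in replicate 3), and COR15A was alike in these libraries (15.1 and 15.2 CPM). In e2f, replicate 3 had the lowest COR15A and KIN1 and the highest COR47 of its group.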
